A study of Oryza sativa Japonica Group with 4 samples.

Results

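The circadian clock genes examined here were 6 named genes, found by their names among the 35825 gene rows of 4 rice anther RNA-seq tables. They were CIRCADIAN CLOCK ASSOCIATED 1 (CCA1), PSEUDO-RESPONSE REGULATOR 95 (PRR95), PSEUDO-RESPONSE REGULATOR 59 (PRR59), GIGANTEA (GI), TIMING OF CAB EXPRESSION 1 (TOC1) and PHYTOCLOCK 1 (PCL1). Each name was found on 1 row, and all 6 passed the minimum of 10 counts in at least 1 library that 24543 genes passed. The set was chosen by the difference of CCA1 between the genotypes, so that difference is described here and supports nothing.

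The study asked what differs between sterile and fertile anthers of a semi-sterile rice line. The *sstl-s* libraries came from anthers of plants with sterile panicles, labelled as the semi-sterile mutant *sstl*, at the late pollen mitosis (LpM) and young microspore (YM) stages. The *SSTL-F* libraries came from anthers of plants with fertile panicles, labelled as control, at the same stages. Both genotypes were of the cultivar Tainung 67, segregated from 1 T-DNA insertional line whose sterility was not tagged by the insertion, and were grown in the same kind of growth chamber with a day and night cycle. The altered gene is therefore not known from the insertion. The hour of the day at which anthers were collected, and the number of plants behind a library, are not given in the sources used here.

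There was 1 library for each genotype and stage, so no difference below has a replicate check and no p-value is given. The libraries held 11076871 counts (*sstl-s* LpM), 11523243 counts (*SSTL-F* LpM), 11559430 counts (*sstl-s* YM) and 10161675 counts (*SSTL-F* YM), and 3 counts stood for 0.260 to 0.295 CPM (counts scaled to a common library total). Levels are CPM after TMM normalization, which scales libraries so that most genes do not differ. The bracketed ranges are 95% counting intervals, which cover counting error only and neither plants, RNA preparation nor collection time. Genes of the tapetum, the inner wall layer of the anther, were found on 7 rows and had counts in all libraries, with 3.72 CPM as the lowest value of any. Some tapetum genes that were sought had no row. The summed level of the 7 rows was 7517 CPM in *sstl-s* and 9164 CPM in *SSTL-F* at LpM, and 4005 CPM in *sstl-s* and 8459 CPM in *SSTL-F* at YM. Most of each sum came from the cytochrome P450 genes CYP703A3 and CYP704B2, at 2570.4 and 3516.8 CPM in *sstl-s* at LpM. The rows did not all go 1 way: 2 were higher and 5 lower in *sstl-s* at LpM, and 1 was higher and 6 lower at YM. The paper describes *sstl-s* anthers as having almost no microspores, a delayed loss of the tapetum, and larger epidermal and endothecium cells at LpM. Cell make-up thus differed along with genotype. In whole anthers, fewer cells of a type and less RNA per cell cannot be told apart, and the part of cell make-up in the clock gene values was not tested.

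The plant clock is a loop of transcription factors that repress each other in turn through the day. CCA1, a MYB factor, peaks around dawn and represses evening genes; the PSEUDO-RESPONSE REGULATOR (PRR) proteins follow it in a daytime wave and repress CCA1; GI, TOC1 and the evening complex, to which LUX, the Arabidopsis relative of PCL1, belongs, peak toward dusk and night. Most of these roles were worked out in Arabidopsis, and in rice the clock is best known for setting heading date through GI. The level of a clock gene in a single sample therefore varies with the hour of collection as well as with the tissue.

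CCA1, the dawn repressor, was the member with the widest spread. It had 3232 counts in *sstl-s* and 121 counts in *SSTL-F* at LpM, and 2481 counts in *sstl-s* and 124 counts in *SSTL-F* at YM. These counts gave 288 CPM in *sstl-s* and 10.7 CPM in *SSTL-F* at LpM, and 203 CPM in *sstl-s* and 12.8 CPM in *SSTL-F* at YM. Both *sstl-s* libraries were high and both *SSTL-F* libraries low. The fold of *sstl-s* over *SSTL-F* was 26.6 at LpM (22.4 to 32.5) and 15.8 at YM (13.3 to 19.2), the values on which the set was selected. Per length, CCA1 had 75.7 RPKM in *sstl-s* and 2.40 RPKM in *SSTL-F* at LpM, which placed it at the 95.3 percentile of the expressed genes in *sstl-s* and at the 29.7 percentile in *SSTL-F*. At YM it had 53.0 RPKM in *sstl-s* and 2.95 RPKM in *SSTL-F*, the 92.7 and the 35.1 percentile of those libraries. Among the 15749 genes with at least 100 counts in their highest library, CCA1 had the 9th highest fold at LpM and the 3rd highest at YM.

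**Figure D1:**
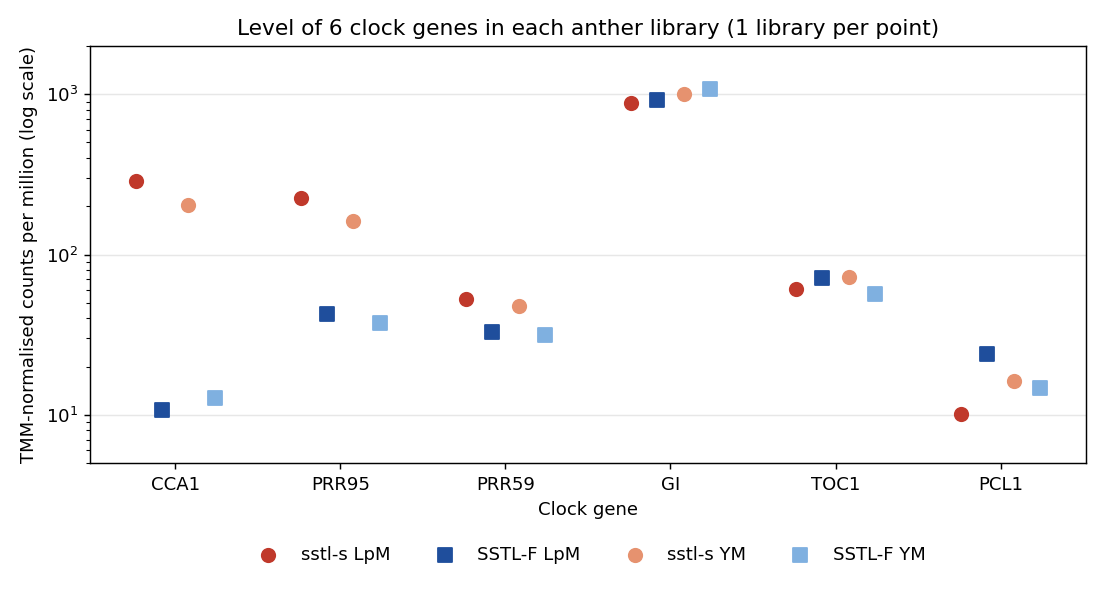
Level of each clock gene in each of the 4 anther libraries, in TMM-normalised CPM on a log axis, with 1 point per library and no error bars because there was 1 library per genotype and stage. CCA1 and PRR95 sit high in both *sstl-s* libraries (288 and 203 CPM for CCA1) and low in both *SSTL-F* libraries (10.7 and 12.8 CPM), while GI, TOC1 and PCL1 show no such separation at both stages.

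PRR95 and PRR59 belong to the daytime PRR family, whose Arabidopsis relatives bind the promoters of CCA1 and its partner and repress them. PRR95 had 225 CPM in *sstl-s* and 42.5 CPM in *SSTL-F* at LpM, and 162 CPM in *sstl-s* and 37.3 CPM in *SSTL-F* at YM. It was thus 5.30-fold higher in *sstl-s* at LpM (4.81 to 5.86) and 4.35-fold higher at YM (3.89 to 4.89), the 61st and the 59th highest fold among the 15749 well-counted genes. PRR59 had 53.1 CPM in *sstl-s* and 32.7 CPM in *SSTL-F* at LpM, and 47.9 CPM in *sstl-s* and 31.7 CPM in *SSTL-F* at YM. Its log2 fold change was 0.70 at LpM (0.51 to 0.89) and 0.59 at YM (0.39 to 0.80), below 2-fold at both stages. The size of the difference fell in the order CCA1, PRR95, PRR59 at both stages. CCA1 was selected on this difference, so its first place is a description, and the intervals cover counting error only.

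GI, the evening regulator that links the clock to flowering, was the most abundant member in every library. It had 876 CPM in *sstl-s* and 926 CPM in *SSTL-F* at LpM, and 1003.2 CPM in *sstl-s* and 1078.5 CPM in *SSTL-F* at YM. Per length its level was 175 RPKM in *sstl-s* and 158 RPKM in *SSTL-F* at LpM, and 199 RPKM in *sstl-s* and 189 RPKM in *SSTL-F* at YM, between the 98.7 and the 99.0 percentile of each library. The log2 fold change was -0.08 at LpM (-0.12 to -0.04) and -0.10 at YM (-0.14 to -0.07). Its sign depended on the scaling: in the deposited RPKM column it was 0.15 at LpM and 0.07 at YM, where the median of all genes was shifted to 0.19 and 0.11. With library size as the only scaling, the YM value was 0.04. The gene in the loop with the most reads was thus nearly level between the genotypes, with a fold of 0.945 at LpM and 0.930 at YM, and no direction is given for it.

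TOC1, the last of the PRR family in the daily order and a repressor of CCA1 in Arabidopsis, had 60.7 CPM in *sstl-s* and 71.2 CPM in *SSTL-F* at LpM, and 72.8 CPM in *sstl-s* and 56.9 CPM in *SSTL-F* at YM. The genotypes were in opposite order at the stages, with a log2 fold change of -0.23 at LpM (-0.38 to -0.08) and 0.36 at YM (0.20 to 0.51). The LpM value was 0.00 with the deposited RPKM column. PCL1, a MYB factor related to the Arabidopsis evening complex protein LUX, had 10.2 CPM in *sstl-s* and 24.1 CPM in *SSTL-F* at LpM, and 16.3 CPM in *sstl-s* and 14.7 CPM in *SSTL-F* at YM. It was lower in *sstl-s* at LpM, with a log2 fold change of -1.23 (-1.56 to -0.91) that became -0.91, short of 2-fold, with the RPKM column. At YM its log2 fold change was 0.15 (-0.17 to 0.47), so no difference was detectable at this depth.

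At LpM, 2 of 6 members were at least 2-fold higher and 1 was at least 2-fold lower in *sstl-s* than in *SSTL-F*, against 4.45% and 6.58% of the 24543 expressed genes. At YM, 2 of 6 were at least 2-fold higher and 0 were lower, against 8.21% and 4.24%. Since this contrast chose the set, nothing is read from these counts. The median log2 fold change of the members was 0.31 at LpM and 0.47 at YM, beside 0.01 and -0.03 over all expressed genes. These medians come from the same contrast and are descriptions too. At LpM, 3 members lay above 0 and 3 below, and at YM 5 lay above and 1 below.

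**Figure D2:**
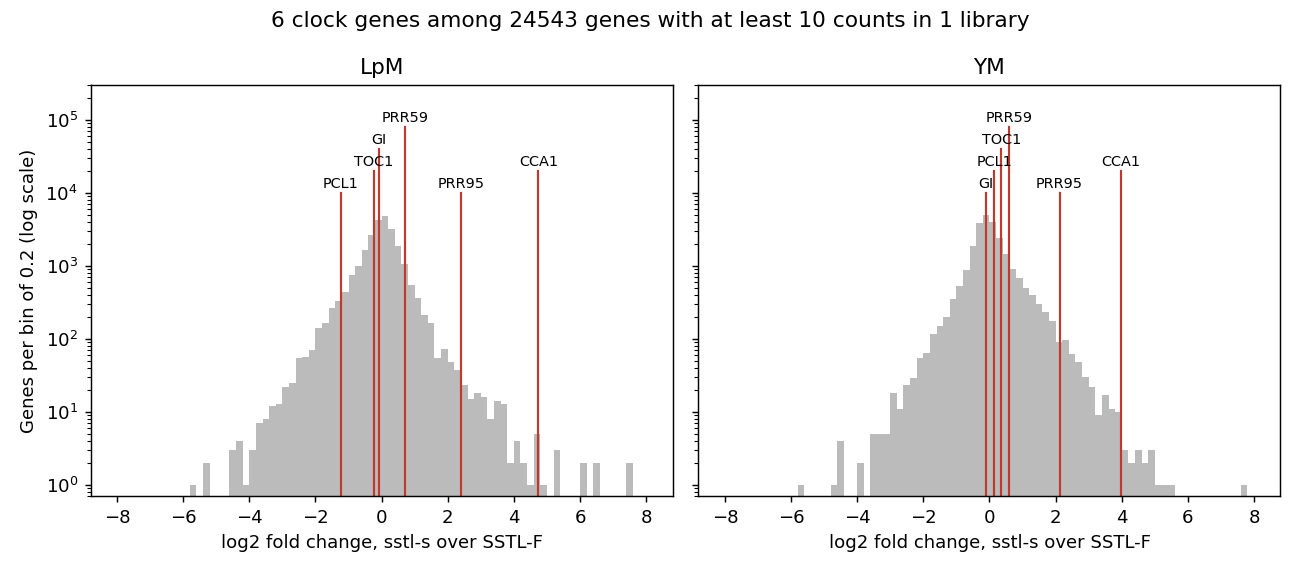
Histograms of the log2 fold change of *sstl-s* over *SSTL-F* for the 24543 expressed genes at LpM (left) and YM (right), with the number of genes per bin on a log axis and a red line at each clock gene. CCA1 (4.74 and 3.98) and PRR95 (2.40 and 2.12) lie in the upper tail at both stages, while PCL1 lies at -1.23 at LpM and 0.15 at YM.

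Ratios of counts within 1 library do not depend on the scaling between libraries. There were 4.75 CCA1 counts per TOC1 count in *sstl-s* and 0.151 in *SSTL-F* at LpM, and 2.79 in *sstl-s* and 0.225 in *SSTL-F* at YM. The dawn gene thus outnumbered the evening gene in both *sstl-s* libraries and was outnumbered by it in both *SSTL-F* libraries. The ratio differed 31.5-fold at LpM (25.6 to 38.8) and 12.4-fold at YM (10.1 to 15.3). Against PCL1, the CCA1 ratio was 28.1 in *sstl-s* and 0.445 in *SSTL-F* at LpM, and 12.5 in *sstl-s* and 0.867 in *SSTL-F* at YM. PRR95 also outnumbered TOC1 in *sstl-s*, with ratios of 3.71 in *sstl-s* and 0.597 in *SSTL-F* at LpM, and 2.23 in *sstl-s* and 0.656 in *SSTL-F* at YM. Since CCA1 was selected on its genotype difference, its ratios are descriptions. The hour of collection is not given, so genotype and hour cannot be told apart in any of these ratios.

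The change between stages within a genotype was not used to choose the set. No member differed 2-fold between LpM and YM in either genotype, so 0 of 6 were higher and 0 of 6 lower. In *sstl-s*, 7.39% of expressed genes were at least 2-fold higher and 4.51% lower at LpM, and in *SSTL-F* these shares were 12.0% and 4.95%. CCA1 was 1.42-fold higher at LpM than at YM in *sstl-s*, a log2 fold change of 0.50 (0.43 to 0.58), while in *SSTL-F* the log2 fold change was -0.25 (-0.63 to 0.12). PRR95 had 0.47 in *sstl-s* (0.39 to 0.56) and 0.19 in *SSTL-F* (-0.01 to 0.39) on the same log2 scale. For PRR59 the stage change was 0.15 in *sstl-s* (-0.02 to 0.32) and 0.04 in *SSTL-F* (-0.18 to 0.27), and neither interval excluded 0.

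The evening genes did not share 1 stage pattern. GI was lower at LpM in both genotypes by nearly the same amount, with a log2 fold change of -0.20 in *sstl-s* (-0.23 to -0.16) and -0.22 in *SSTL-F* (-0.26 to -0.18). TOC1 was lower at LpM in *sstl-s*, at -0.26 (-0.41 to -0.12), and higher at LpM in *SSTL-F*, at 0.32 (0.17 to 0.48). PCL1 had the same opposite signs, at -0.67 in *sstl-s* (-1.01 to -0.33) and 0.71 in *SSTL-F* (0.41 to 1.01). The stage change in *sstl-s* minus that in *SSTL-F* was -1.37 for PCL1 (-1.81 to -0.93), -0.59 for TOC1 (-0.80 to -0.37), 0.75 for CCA1 (0.38 to 1.12) and 0.28 for PRR95 (0.07 to 0.50). It was 0.11 for PRR59 (-0.17 to 0.38) and 0.02 for GI (-0.03 to 0.08), with intervals that included 0. By construction, each of these differences is also the genotype difference at LpM minus that at YM. The value of CCA1 is therefore built from the values on which the set was selected, and it is a description. The sign was positive for CCA1 and PRR95 and negative for TOC1 and PCL1, with no replicate to test it against.

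**Figure D3:**
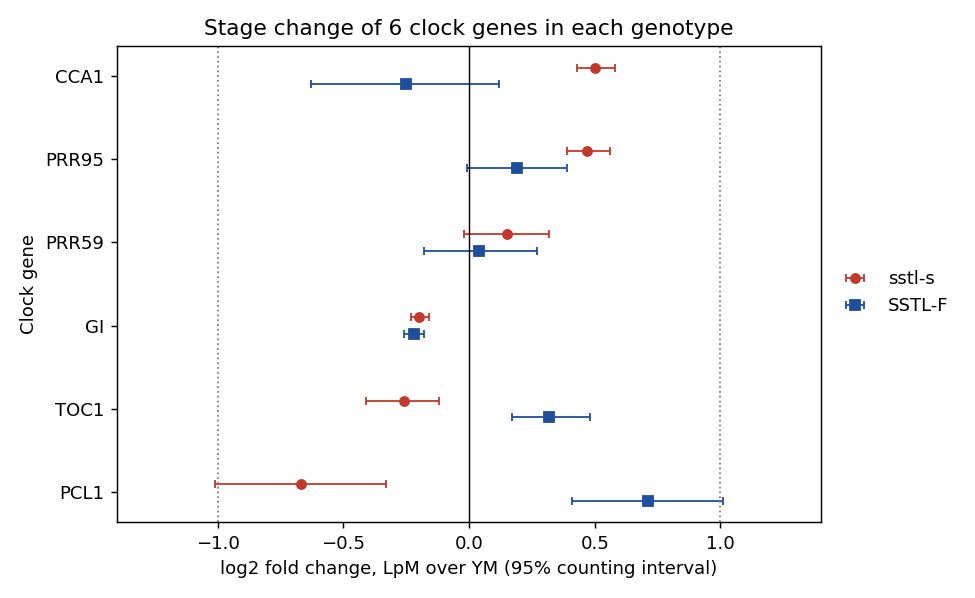
Stage change (log2 fold change, LpM over YM) of each clock gene in *sstl-s* (red circles) and *SSTL-F* (blue squares), with 95% counting intervals as bars and dotted lines at 2-fold. CCA1, TOC1 and PCL1 have opposite signs in the genotypes (PCL1 at -0.67 in *sstl-s* and 0.71 in *SSTL-F*), while the values of GI nearly coincide.

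Of the other core clock genes, 11 rows were found and all were expressed. At LpM, 0 of 11 were at least 2-fold higher and 1 was lower in *sstl-s* than in *SSTL-F*, and at YM 0 of 11 passed 2-fold in either direction. Over all expressed genes the shares were 4.45% higher and 6.58% lower at LpM, and 8.21% and 4.24% at YM, so counts this low lie near the background. Their median log2 fold change was 0.11 at LpM and -0.02 at YM. The remaining PRR genes were higher in *sstl-s* at both stages but under 2-fold. PRR73 had 397 CPM in *sstl-s* and 258 CPM in *SSTL-F* at LpM, and 398 CPM in *sstl-s* and 306 CPM in *SSTL-F* at YM. PRR37, listed as Heading date 2 and known in rice as a long-day repressor of heading, had 108 CPM in *sstl-s* and 65.3 CPM in *SSTL-F* at LpM, and 115 CPM in *sstl-s* and 89.1 CPM in *SSTL-F* at YM. With log2 fold changes of 0.62 and 0.73 at LpM and 0.38 and 0.36 at YM, PRR73 and PRR37 lay near PRR59, so within the PRR family PRR95 stood apart in size at both stages.

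The row named LATE ELONGATED HYPOCOTYL is a separate gene: it stands between Os04g0583800 and Os04g0584201 in the tables, while CCA1 stands between Os08g0157400 and Os08g0157700, and RefSeq gives OsLHY and OsCCA1 as names of 1 gene. It moved the other way from CCA1, with 5.79 CPM in *sstl-s* and 14.3 CPM in *SSTL-F* at LpM, on the log2 scale a difference of -1.29 (-1.74 to -0.88), the 1 lower gene counted above. At YM it had 5.41 CPM in *sstl-s* and 6.90 CPM in *SSTL-F*, a log2 fold change of -0.35 (-0.86 to 0.16). This was the 1 gene of the 11 past 2-fold between stages, at 1.04 in *SSTL-F* (0.63 to 1.48), beside 0.10 in *sstl-s*. Over all expressed genes, 12.0% were at least 2-fold higher and 4.95% lower at LpM in *SSTL-F*, so 1 of 11 is near the background. EARLY FLOWERING 3.2, named for a scaffold of the evening complex, had 27.2 CPM in *sstl-s* and 26.1 CPM in *SSTL-F* at LpM, and 24.5 CPM in *sstl-s* and 25.0 CPM in *SSTL-F* at YM. Its log2 fold change at LpM was 0.06, at the stage where PCL1 was lower in *sstl-s*. The rows ELF4_chr.3, ELF4_chr.8 and ELF4_chr.11 had 0.08 (-0.16 to 0.32), 0.33 (0.02 to 0.64) and 0.24 (-0.01 to 0.48) at LpM. At YM these ELF4 rows had 0.24, 0.08 and -0.09, with intervals that included 0. FLAVIN-BINDING, KELCH REPEAT, F BOX 1 (FKF1), a blue-light F-box protein that partners GI, had log2 fold changes of 0.16 at LpM and 0.30 at YM.

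**Figure D4:**
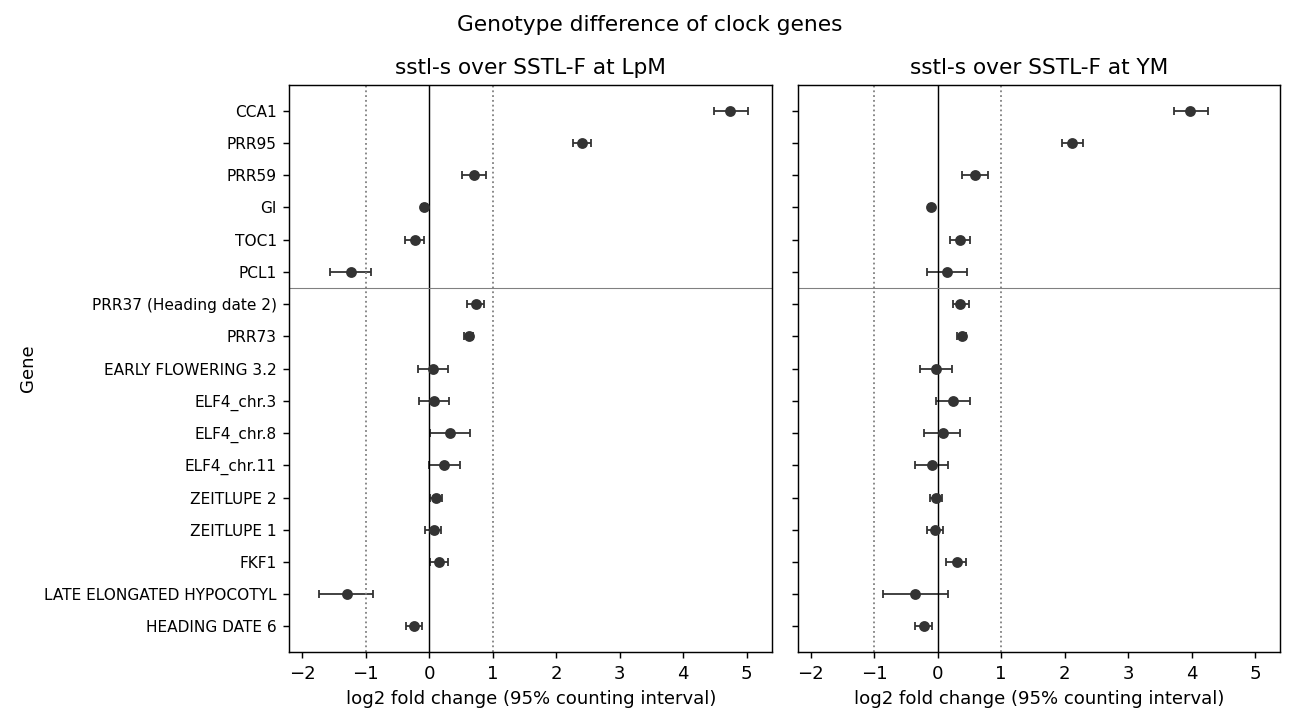
Log2 fold change of *sstl-s* over *SSTL-F* at LpM (left) and YM (right) for the 6 members (above the line) and 11 other core clock genes (below it), with 95% counting intervals as bars and dotted lines at 2-fold. CCA1 (4.74 at LpM) and PRR95 (2.40 at LpM) lie past 2-fold at both stages, and PCL1 (-1.23) and LATE ELONGATED HYPOCOTYL (-1.29) lie past it on the lower side at LpM.

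Light-harvesting chlorophyll a/b-binding (CAB) genes, the output after which TOC1 was named, were followed on 6 rows. Their summed level was 695.3 CPM in *sstl-s* and 546.5 CPM in *SSTL-F* at LpM, and 311.1 CPM in *sstl-s* and 213.0 CPM in *SSTL-F* at YM. The 2-fold line was passed upward in *sstl-s* by 0 of 6 at LpM and 2 of 6 at YM, against 4.45% and 8.21% of all expressed genes, and 0 of 6 passed it downward at either stage. The median log2 fold changes were 0.19 and 0.48. The rows did not move as 1 group. CAB 2R, the row with the highest fold at both stages, had 228 CPM in *sstl-s* and 127 CPM in *SSTL-F* at LpM, and 70.5 CPM in *sstl-s* and 34.0 CPM in *SSTL-F* at YM. CP29 was on the lower side in *sstl-s*, with a log2 fold change of -0.32 at LpM and -0.33 at YM, and CP24 had -0.30 at LpM. Another marker group of green tissue, the Rubisco small subunit on 4 rows, had a summed level of 56.2 CPM in *sstl-s* and 101.9 CPM in *SSTL-F* at LpM, and 37.9 CPM in *sstl-s* and 51.1 CPM in *SSTL-F* at YM. The part of green cells in the clock gene values was not tested.

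The genes whose profile over the 4 libraries was most like that of CCA1 were sought by the Euclidean distance of log2 levels centred on each gene's mean, among 15748 other genes with at least 100 counts in their highest library. The nearest were Os02g0574500 (distance 0.87), Os01g0281100 (1.22), Os11g0151400 (1.26), DnaJ domain protein C10 (1.90) and Os05g0456925 (1.98). In the same order, their *SSTL-F* counts at LpM and YM were 21 and 17, 11 and 5, 14 and 12, 20 and 10, and 46 and 33. All of them thus passed the 100-count minimum through the *sstl-s* libraries only, and their *SSTL-F* levels rest on few reads. Os02g0574500 had 23.6 CPM in *sstl-s* and 1.86 CPM in *SSTL-F* at LpM, and 21.0 CPM in *sstl-s* and 1.75 CPM in *SSTL-F* at YM. PRR95 was 8th at 2.12 and PRR59 452nd at 3.73. The nearest to GI was Os12g0154000 (0.02) and the nearest to TOC1 was EXOCYST SUBUNIT EXO70 FAMILY PROTEIN B3 (0.04); both members varied little, so many genes lie close to them. With 4 libraries, these distances describe the libraries and nothing more.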

How the data were processed

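Anther RNA of each genotype and stage was sequenced as 1 single-end library on an Illumina HiSeq instrument. Reads were counted by the authors in CLC Genomics Workbench 11 with gene models of RAP-DB; the genome build, mapping and strand settings are not given in the sources used here, so overlapping or near-identical genes may share reads. The deposited total counts per gene were the basis of all values. The deposited RPKM column gave levels per length and an alternative. The deposited TPM column and the deposited CPM column, treated as a score because its sum differs between libraries, were only inspected.

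Counts were scaled with TMM (edgeR 4.0.16, R 4.3.3) and fold changes used a prior count of 1. Intervals are 95% exact Clopper-Pearson intervals of a gene's share of reads between 2 libraries; those of stage-change differences and of within-library ratios are 95% Wald intervals. Called means at least 2-fold apart. No statistical test between libraries was run. The calculation of the fold changes was checked on simulated counts. The named genes were all 6 members, list genes with at least 100 counts, and the 5 nearest profiles of CCA1, GI and TOC1. Of these profiles, the text gives those of CCA1 and the first for GI and for TOC1. HEADING DATE 3A, with 40 counts in its highest library, was named outside this rule. The members and lists were chosen with earlier results of these data known, and name patterns of the lists were adjusted after the row names were seen. Gene names are those of the tables, with synonyms from RefSeq (ASM3414082v1). Alternatives were library size only, DESeq2 1.42.0 size factors, RPKM with a pseudocount of 1, prior counts of 0.25 and 5, no filter and at least 50 counts. Figures were drawn with matplotlib 3.10.9, and tables were handled with pandas 2.3.3, numpy 2.4.6 and scipy 1.17.1 under Python 3.11.15.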

Additional observations from a re-analysis of the deposited data

Results flagged for a closer look

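The stage change of 3 members had opposite signs in the genotypes, with 1 library behind each level, and the difference was not tested. The log2 stage change in *sstl-s* minus that in *SSTL-F* was 0.75 for CCA1, -0.59 for TOC1 and -1.37 for PCL1. For CCA1 the stage change in *SSTL-F* had a counting interval that included 0 (-0.63 to 0.12).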

How the results depend on the processing

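The number of members past 2-fold was within 1.5 times its value under each alternative tried in each comparison; with RPKM it was 2 of 6 instead of 3 at LpM, since PCL1 came to -0.91. Of 24 member values per alternative, 0 moved beyond their counting interval with DESeq2 size factors or other prior counts, 3 with library size only and 5 with RPKM. GI between genotypes changed sign with RPKM at LpM (0.15) and YM (0.07) and with library size only at YM (0.04). The median of all genes shifted to 0.19 at LpM and 0.11 at YM with RPKM, and to 0.06 and 0.11 with library size only. The cause of these shifts was not tested. No paired analysis was possible because each genotype and stage had 1 library, and for the same reason no library could be left out. Without replicates, the spread between plants is unknown.

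Counts over all genes moved more. In *sstl-s* over *SSTL-F* at LpM, 1092 genes were higher and 1615 lower; at YM, 2014 and 1040. For LpM over YM, 1813 were higher and 1108 lower in *sstl-s*, and 2937 and 1214 in *SSTL-F*. In the same order, RPKM gave 465 and 435, 927 and 232, 769 and 353, and 1364 and 607. With no filter there were 1902 and 2543, 3095 and 2211, 2722 and 1861, and 2330 lower in *SSTL-F*. At least 50 counts left 486 and 794, 918 and 477, 963 and 455, and 1555 and 744, as fewer genes were counted. A prior count of 5 gave 650 higher at LpM, 657 lower at YM and 733 lower in *sstl-s*.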

Other observations

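Genes of photoperiodic flowering, the best known output of the rice clock, were found on 13 rows, of which 12 were expressed. At LpM 0 of 12 were at least 2-fold higher and 4 were lower in *sstl-s* than in *SSTL-F*, and at YM 0 were higher and 1 was lower, against 4.45% higher and 6.58% lower at LpM and 8.21% higher and 4.24% lower at YM over all expressed genes. Their median log2 fold changes were -0.23 and -0.28. CONSTANS-like gene N, of the family of the flowering regulator CONSTANS, had 30.4 CPM in *sstl-s* and 72.3 CPM in *SSTL-F* at LpM, and 28.3 CPM in *sstl-s* and 54.0 CPM in *SSTL-F* at YM. B-box-containing protein 19 had 34.0 CPM in *sstl-s* and 76.0 CPM in *SSTL-F* at LpM, and 35.0 CPM in *sstl-s* and 73.9 CPM in *SSTL-F* at YM. The list did not move as 1 group: of the 12 expressed rows, 8 had a log2 fold change below 0 and 4 above 0 at each stage. CONSTANS-like gene 4 was among those above, at 0.08 at LpM and 0.37 at YM. HEADING DATE 3A, the rice florigen, named after its values were seen, had 13 counts in *sstl-s* and 40 counts in *SSTL-F* at LpM, and 1 count in *sstl-s* and 2 counts in *SSTL-F* at YM.

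The 6 photoreceptor rows, which carry light signals to the clock, held no gene past 2-fold in any of the 4 comparisons. Their log2 fold changes of *sstl-s* over *SSTL-F* lay between -0.29 and 0.39 at LpM and between -0.28 and 0.17 at YM. Over all expressed genes 4.24% to 12.0% passed 2-fold in 1 direction of a comparison, so 0 of 6 is near the background.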
